A study of Homo sapiens with 4 samples.

Results

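IFITM1, IFITM2, IFITM3 and BST2 encode small interferon-inducible membrane proteins that act on enveloped viruses at the beginning and at the end of infection. They are 4 of the 19102 named genes on an Agilent expression array, on which they have 5 probes of 34127, and they were chosen by gene name, as the genes of the IFITM family active in most cells plus BST2. All 4 were among the 14556 genes tested. The array files used here give no gene name for a probe, so the members were found through the RefSeq accession of each probe, and every probe so found is described.

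RNA came from PC3, a human prostate cancer cell line. The cells were infected for 48 h with lentivirus carrying an shRNA against ALKBH3, an oxidative demethylase that repairs alkylated DNA and RNA, or a control shRNA directed at GFP, and then selected with puromycin. RNA was taken 48 h or 96 h after selection, with 1 array for each shRNA at each time point, which makes 2 arrays per shRNA and 4 in all. All 4 arrays therefore came from lentivirus-infected, drug-selected cells, none was left uninfected, and the labels do not say which ALKBH3 shRNA sequence was used or that the arrays came from separate cultures. P-values thus measure only the spread among these arrays. The 2 arrays of an shRNA differ in time point, so each SD given with n = 2 holds the difference between 48 h and 96 h. In such bulk RNA, a change in the number of cells that express a gene and a change in the RNA per cell cannot be told apart.

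IFITM proteins sit in the plasma membrane, endosomes and lysosomes and hinder the fusion of a virus envelope with the host membrane, so that the viral core does not reach the cytosol. IFITM1 is found mainly at the cell surface, whereas IFITM2 and IFITM3 carry a sorting signal that takes them into endosomes. BST2, also called tetherin, has a transmembrane segment at one end and a lipid anchor at the other, and holds newly budded virus particles on the surface of the cell that made them. All 4 genes are textbook interferon-stimulated genes, transcribed when factors activated by interferon bind interferon response elements near their start sites. IFITM1, IFITM2 and IFITM3 lie side by side on chromosome 11, and BST2 lies on chromosome 19.

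The promoter sequences show which of these elements each gene has. RefSeq promoter windows on GRCh38.p14, which run from 250 bases before to 50 bases after the start site, were given for IFITM1, IFITM3 and BST2 and not for IFITM2. The 150 bases before the start are printed below 5′ to 3′ on the strand of the gene, at chr11:313890-314039 (plus strand) for IFITM1, chr11:320861-321010 (minus strand) for IFITM3 and chr19:17405631-17405780 (minus strand) for BST2. Capitals mark complete matches to the core of the interferon response element, GAAANNGAAA.
IFITM1: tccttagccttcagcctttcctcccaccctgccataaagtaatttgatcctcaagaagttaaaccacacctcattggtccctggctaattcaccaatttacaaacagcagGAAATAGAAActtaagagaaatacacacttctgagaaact
IFITM3: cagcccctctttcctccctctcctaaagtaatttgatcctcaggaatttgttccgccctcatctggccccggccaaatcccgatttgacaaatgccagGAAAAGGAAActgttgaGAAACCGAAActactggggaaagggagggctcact
BST2: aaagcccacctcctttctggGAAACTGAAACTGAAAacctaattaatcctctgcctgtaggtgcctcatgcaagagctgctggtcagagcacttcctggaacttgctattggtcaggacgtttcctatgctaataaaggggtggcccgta

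The core was searched on both strands and occurred in 3 of the 3 windows, against 1255 of all 35116 promoter windows of the same length (3.57%). Of the restriction factors that act inside the cell, described below, 11 of 20 windows (55%) held the core. Of the other genes that restrict virus at membranes, 5 of 15 (33.3%) did. In IFITM1 it lay at -40 to -31, and a second match from -6 to 4 ran across the start site and is only partly within the printed stretch. In IFITM3 the matches were at -52 to -43 and -35 to -26. In BST2 they were farther from the start, at -130 to -121 and -124 to -115, and overlapped each other, so that the run of capitals holds both. These matches are letters in a window, and binding of any factor was not measured here.

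**Figure D1:**
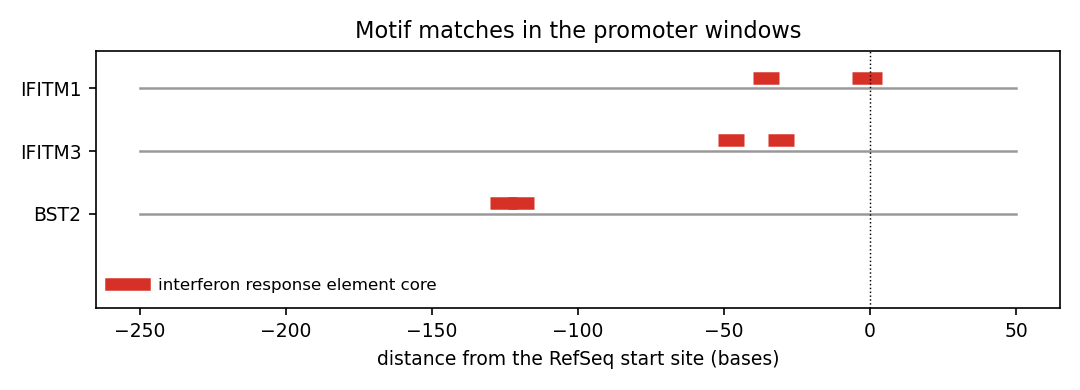
Positions of motif matches in the RefSeq promoter windows of IFITM1, IFITM3 and BST2, as distance in bases from the start site (dotted line), with the interferon response element core in red. The core matches of IFITM3 and the first of IFITM1 lie within the last 52 bases before the start, whereas those of BST2 overlap each other between -130 and -115.

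The arrays were of like quality. The 75th percentile of the fluorescence intensity, used to centre each array, lay between 2150 and 2394, 66.97% to 70.92% of probes were well above background, and spots that carry the same probe differed by a median SD of 0.085 to 0.0967 on the log2 scale. ALKBH3, the gene targeted, had log2 signals of -0.74 and -0.89 with control shRNA and of -2.48 and -2.41 with ALKBH3 shRNA, at 48 h and 96 h in turn, a log2 fold change of -1.63 ± 0.12 (SE; limma adjusted p = 0.253, and 0.0264 when blocked by time point). No gene of 14556 (0%) had a limma adjusted p below 0.05 in either direction, while 1213 had an unadjusted p below 0.05. With the time point as a block, 431 genes passed higher with ALKBH3 shRNA (2.96%) and 218 lower. The leukocyte genes PTPRC, CD3E, CD14 and ITGAM had low signal on every array, with log2 values between -5.65 (CD3E) and -2.88 (CD14). The intensities of the epithelial markers KRT8, KRT18, KRT19, EPCAM and CDH1 summed to 181 and 166 times the 75th percentile with control shRNA and to 166 and 161 times with ALKBH3 shRNA, at 48 h and 96 h. Their log2 fold changes were 0.98 for EPCAM, 0.74 for CDH1, 0.03 for KRT8, -0.07 for KRT18 and -0.18 for KRT19. None had a limma adjusted p below 0.05 (EPCAM 0.418, CDH1 0.887), and when blocked by time point EPCAM (0.0264) and CDH1 (0.0472) did. Fibroblast and endothelial markers summed to 0.750 and 0.494 with control shRNA and to 0.966 and 0.795 with ALKBH3 shRNA, in the same order. Their log2 fold changes went both ways, at 0.71 for COL1A1, 0.65 for DCN, 0.29 for VWF, -0.43 for COL3A1 and -0.59 for PECAM1. When blocked by time point, DCN had a limma adjusted p below 0.05 (0.0426). DCN, COL3A1 and VWF had low signal on every array, with log2 values between -6.26 (VWF) and -5.185 (DCN). VWF was not well above background on the control array at 96 h. The part of these markers in the results was not tested.

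All 4 genes had higher signal with ALKBH3 shRNA than with control shRNA at both time points. The difference was larger at 48 h than at 96 h for each of them, and was largest for BST2 at 48 h (6.13-fold) and smallest for IFITM2 at 96 h (1.25-fold). Signal is given below as the intensity on each array and as log2 of the intensity minus log2 of the 75th percentile of that array. No member passed the cutoffs of the study, a 2-fold change with a p below 0.05, against 151 of all genes with higher signal (1.04%). They were taken here as an unadjusted limma p and a change over the 4 arrays. The study does not state if its p was adjusted or how the time points were fitted. IFITM1 missed them narrowly on p, and that outcome turned on the processing, as given for it below. All 5 member probes were well above background on every array, and none was flagged or saturated. Each was printed in 1 spot, so the error within an array is not known for them.

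The members' signals by array show where the groups separate. IFITM1, IFITM2 and IFITM3 did not overlap between the shRNAs, while for BST2 the control array at 48 h was slightly above the ALKBH3 shRNA array at 96 h. Of all genes tested, 2527 (17.4%) were higher with ALKBH3 shRNA without overlap. A signal cannot be compared between probes as an amount of RNA, since probes differ in how well they capture their target. Against the 75th percentile of its own array, the IFITM probes lay between 15.2 and 132 times that intensity and the BST2 probe between 0.719 and 7.95 times.

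**Figure D2:**
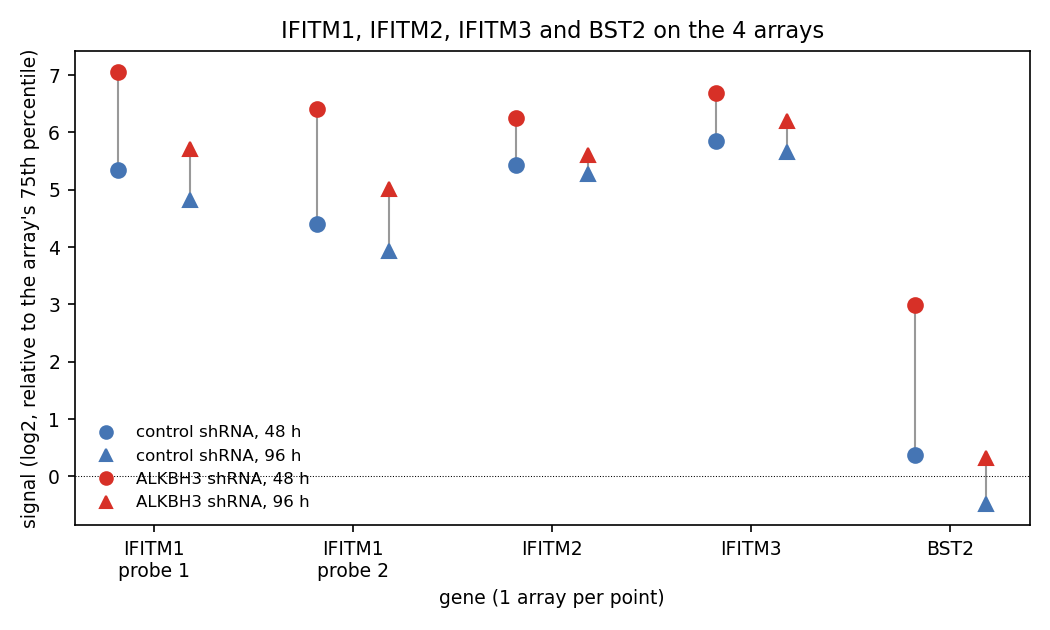
Signal of each probe of IFITM1, IFITM2, IFITM3 and BST2 (log2, relative to the 75th percentile of the array, dotted line at 0), with 1 array per point, control shRNA in blue and ALKBH3 shRNA in red, circles at 48 h and triangles at 96 h, and a grey line joining the 2 arrays of a time point. Every red point lies above the blue point of its time point, and the widest gap is that of BST2 at 48 h.

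IFITM1, the family member of the cell surface, had intensities of 87349 and 65794 with control shRNA and of 302628 and 125161 with ALKBH3 shRNA, at 48 h and 96 h in turn. On the log2 scale these were 5.34 and 4.81 against 7.05 and 5.71, a mean of 5.08 ± 0.38 against 6.38 ± 0.95 (SD, n = 2). The ALKBH3 shRNA array at 48 h was highest and the control array at 96 h lowest, and both ALKBH3 shRNA arrays were above both controls. The difference was 3.26-fold at 48 h and 1.86-fold at 96 h. Over the 4 arrays the log2 fold change was 1.30 ± 0.49 (SE), with an unadjusted limma p of 0.0516 and an adjusted p of 0.600. With time point as a block the unadjusted limma p was 0.00261, past the study's cutoffs, and the limma adjusted p was 0.0536. The share of all genes past these cutoffs in the blocked fit was not counted. By the size of its difference at 48 h IFITM1 stood at place 80 among the 14556 genes, and at place 286 at 96 h.

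A second IFITM1 probe read a lower intensity with the same order of arrays. It gave 45733 and 35549 with control shRNA and 195132 and 77726 with ALKBH3 shRNA, or 4.41 and 3.93 against 6.42 and 5.02 on the log2 scale. These are 4.01-fold at 48 h and 2.14-fold at 96 h. When each probe was tested separately, this probe had a log2 fold change of 1.55 ± 0.50 (SE) and passed the cutoffs (unadjusted p = 0.0304), with a limma adjusted p over all probes of 0.565, and of 0.0423 when blocked by time point. The mean over both IFITM1 probes also passed them, at 1.43 with an unadjusted limma p of 0.0411. In that fit over single probes the first IFITM1 probe passed as well, at 1.30 with an unadjusted limma p of 0.0494, so both probes were on the same side of the cutoffs.

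IFITM2, an endosomal member of the family, had the smallest difference of the 4. Its intensities were 92410 and 90925 with control shRNA and 174590 and 116354 with ALKBH3 shRNA, at 48 h and 96 h. The log2 signals were 5.43 and 5.28 against 6.26 and 5.60, a mean of 5.35 ± 0.10 against 5.93 ± 0.46 (SD, n = 2). The controls were close to each other, and the ALKBH3 shRNA array at 48 h stood above the other 3. The difference was 1.78-fold at 48 h and 1.25-fold at 96 h, with a log2 fold change of 0.58 ± 0.25 (SE) over the 4 arrays (limma adjusted p = 0.657). The log2 signal of the control at 48 h minus that of the ALKBH3 shRNA array at 96 h was -0.18, so the groups did not overlap, but it was 0.02 in the authors' normalized values and 0.01 after normexp correction with quantile normalization.

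IFITM3, the endosomal member best known for hindering influenza virus, had the smallest spread of the 4 with ALKBH3 shRNA. Its intensities were 124067 and 117962 with control shRNA and 236289 and 175835 with ALKBH3 shRNA. The log2 signals were 5.85 and 5.66 against 6.69 and 6.20, a mean of 5.75 ± 0.14 against 6.45 ± 0.35 (SD, n = 2). Both ALKBH3 shRNA arrays were above both controls, and the log2 signal of the highest control minus that of the lowest ALKBH3 shRNA array stayed between -0.43 and -0.35 in 7 ways of scaling the arrays. The difference was 1.79-fold at 48 h and 1.46-fold at 96 h. The log2 fold change of 0.69 ± 0.21 (SE) had the smallest unadjusted p of the 4 genes (0.0246) and lay under the 2-fold cutoff, with a limma adjusted p of 0.510. With time point as a block, IFITM3 was the 1 member, by the probe that represents each gene, with a limma adjusted p below 0.05 (0.0484). In that fit 431 of all genes passed with higher signal (2.96%).

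BST2, the tether of budding particles, had the largest difference and the widest spread. Its intensities were 2787 and 1682 with control shRNA and 18162 and 3008 with ALKBH3 shRNA, at 48 h and 96 h. The log2 signals were 0.37 and -0.48 against 2.99 and 0.33, a mean of -0.05 ± 0.60 against 1.66 ± 1.88 (SD, n = 2). The ALKBH3 shRNA array at 48 h stood far above the other 3, which lay within a range smaller than 1 on the log2 scale. At 48 h the difference was 6.13-fold, at place 13 among the 14556 genes, and at 96 h it was 1.75-fold, at place 369. The log2 fold change over the 4 arrays was 1.71 ± 0.94 (SE), with an unadjusted limma p of 0.135 and an adjusted p of 0.743. With time point as a block the unadjusted limma p was 0.0155, past the study's cutoffs, and the limma adjusted p was 0.113. As for IFITM1, the share of all genes past them in that fit was not counted. The overlap of the groups was slight, since the control at 48 h exceeded the ALKBH3 shRNA array at 96 h by 0.05 on the log2 scale, and in 3 of 7 ways of scaling the arrays the order of these arrays turned.

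The time course was the same in kind for all 4 genes: signal was lower at 96 h than at 48 h with either shRNA. With ALKBH3 shRNA the log2 signal changed from 48 h to 96 h by -2.66 in BST2, -1.34 in IFITM1, -0.65 in IFITM2 and -0.49 in IFITM3. With control shRNA these differences were -0.85, -0.53, -0.15 and -0.20 in the same order. Among all genes 39.2% were lower at 96 h with both shRNAs. BST2 had the second largest fall of all 14556 genes with ALKBH3 shRNA and stood at place 245 with control shRNA. Tested over both shRNAs, the log2 difference of 96 h against 48 h was -1.76 ± 0.95 (SE) for BST2, -0.94 ± 0.67 for IFITM1, -0.40 ± 0.32 for IFITM2 and -0.34 ± 0.36 for IFITM3, with limma adjusted p of 0.393, 0.502, 0.545 and 0.638. No member passed the cutoffs for time, as 96 of all genes did with lower signal (0.66%). BST2 passed them with shRNA as a block (unadjusted p = 0.0141, limma adjusted p = 0.0709). Both arrays of a time point were on 1 slide, so time point and slide cannot be told apart.

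The ALKBH3 shRNA difference was at least 2-fold at 48 h for IFITM1 and BST2, as it was for 273 of all genes with higher signal (1.88%). At 96 h it was under 2-fold for all 4 genes by the probe that represents each, and at least 2-fold for 213 of all genes (1.46%). The log2 fold change at 48 h exceeded that at 96 h by 1.81 for BST2, 0.81 for IFITM1, 0.51 for IFITM2 and 0.30 for IFITM3, while 47.2% of all genes had the larger value at 48 h. With 1 array per shRNA and time point, these differences between time points have no replicate and no test. Higher signal with ALKBH3 shRNA at both time points, shown by 4 of 4 members, was shown by 34.6% of all genes.

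**Figure D3:**
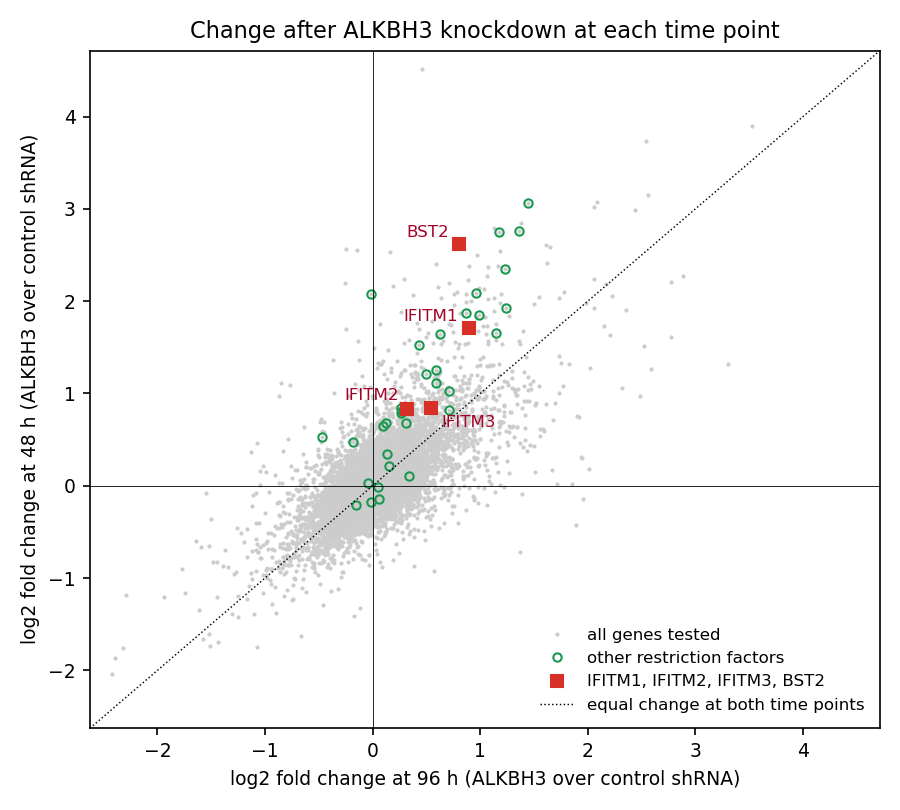
Log2 fold change of ALKBH3 over control shRNA at 96 h (x axis) and at 48 h (y axis) for all 14556 genes (grey points), other virus restriction factors (green circles) and IFITM1, IFITM2, IFITM3 and BST2 (red squares), with a dotted line where both are equal. All 4 members lie right of 0 and above the dotted line, BST2 farthest from it at 2.62 and 0.81.

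The comparison of the bright IFITM probes with BST2 asked if the genes responded by different amounts. The log2 fold change of IFITM1 minus that of BST2 was -0.41 over the 4 arrays, -0.91 at 48 h and 0.09 at 96 h. For IFITM3 the same difference was -1.02 over the 4 arrays, -1.77 at 48 h and -0.26 at 96 h. For IFITM2 it was -1.13, -1.79 at 48 h and -0.48 at 96 h. By the probe that represents each gene, BST2 thus had the larger change in each pair at 48 h, and at 96 h the values of IFITM1 and BST2 were close. The second IFITM1 probe was not part of this comparison. Its log2 fold change over the 4 arrays was 1.55, against 1.71 for BST2. At 48 h its value was also below that of BST2, but at 96 h it was above, at 1.10 against 0.81. The exact two-sided permutation p was 1 for IFITM1 and 0.667 for IFITM2 and IFITM3, with an adjusted p of 1 over the 3 pairs. With 2 arrays per shRNA this test cannot go below 0.333, so it could not have shown a difference. Without the ALKBH3 shRNA array at 48 h, the difference turned to 0.25 for IFITM1 and to 0.065 for IFITM3, and stayed below 0 for IFITM2, at -0.13.

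Genes with the most similar pattern over the 4 arrays were found by the Euclidean distance between signals, each gene centred on its own mean. IFITM2 and IFITM3 were close to each other (0.165), while IFITM1 was 0.914 from IFITM2 and 0.886 from IFITM3. BST2 was 1.05 from IFITM1, 1.89 from IFITM2 and 1.90 from IFITM3. Nearest to IFITM1 were THEMIS2 (0.068), UBE2L6, an enzyme that passes ISG15 to its targets (0.158), and OAS1, a sensor of double-stranded RNA (0.169). Nearest to BST2 were RTP4 (0.428), the chemokine CXCL10 (0.461) and OASL (0.462), at greater distances than the nearest genes of the other members. IFITM2 was nearest to NMUR2 (0.0405), EBF4 (0.0511) and BLZF1 (0.0648), and IFITM3 to RHBG (0.0369), CLDN23 (0.0503) and FLRT3 (0.0681). With only 4 arrays, small distances are common among genes of small change and are given as a description.

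None of the 12 nearest tested genes beside the members on the chromosome passed the cutoffs. The 3 tested genes on either side of the IFITM cluster, SIRT3, PSMD13, PGGHG, B4GALNT4, PKP3 and SIGIRR, had log2 fold changes from -0.36 (SIGIRR) to 0.31 (SIRT3). Those beside BST2, ANO8, GTPBP3, PLVAP, MVB12A, NXNL1 and SLC27A1, lay between -0.21 and 0.15. Of the rest of the IFITM family, the pseudogene IFITM4P was at 4.62 and 4.22 with control shRNA and at 6.01 and 4.83 with ALKBH3 shRNA on the log2 scale, a log2 fold change of 0.998 that did not pass the cutoffs (limma adjusted p = 0.657). The IFITM5 probe was not well above background on any array, and IFITM10 had no named probe. IFITM1, IFITM2, IFITM3 and IFITM4P are closely related in sequence, the files used here hold no probe sequences, and signal shared between their probes was not tested, so the values of these genes may not be separate measurements.

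Partners of these proteins were described from lists. None of 10 tested genes that modify or assist IFITM proteins passed the cutoffs, with a median log2 fold change of 0.01 against -0.003 over all genes. They ranged from -0.30 for FYN, a kinase that phosphorylates IFITM3, and -0.21 for SWAP70 to 0.24 for NEDD4, a ubiquitin ligase that leads IFITM3 to degradation, and 0.33 for KDM1A. ZDHHC20, which attaches palmitate to IFITM3, was at -0.01. None of 5 tested genes linked to BST2 passed either, with a median of 0.01. The lowest was ARHGAP44 (-0.48), which links BST2 to the actin skeleton, followed by LILRA4 (-0.10), the receptor for BST2 on plasmacytoid dendritic cells. The highest were TRAF6 (0.05) and MAP3K7 (0.02), which carry the signal from clustered BST2 to NF-κB.

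Other genes that restrict virus at membranes were mixed. None of 11 tested passed the cutoffs, and their median log2 fold change was 0.22. RSAD2, or viperin, which disturbs budding from lipid rafts, was the highest at 2.26, with 3.06 at 48 h and 1.45 at 96 h, and its unadjusted limma p was 0.053. PLSCR1 followed at 0.98 and LY6E, which hinders coronavirus fusion, at 0.85. SERINC3 was lowest at -0.10 and CNP was at -0.01. With time point as a block 1 of the 11 had a limma adjusted p below 0.05, against 2.96% of all genes with higher signal. It was ISG15, the ubiquitin-like modifier (0.77, limma adjusted p = 0.0314).

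Among restriction factors that act inside the cell, some passed the cutoffs. Of 22 tested, 7 rose past the cutoffs (MX1, MX2, IFIT1, IFIT3, OAS1, OAS3, IFI6), against 1.04% of all genes, none passed with lower signal, and the median log2 fold change was 0.89, with 1.23 at 48 h and 0.54 at 96 h. Among these 7 the log2 fold changes were 1.40 for MX1 and 2.06 for MX2, the dynamin-like traps of viral capsids and nucleoproteins. They were 1.58 for IFIT1, which binds foreign RNA, and 1.52 for IFIT3. OAS1 and OAS3, which activate RNase L, were at 1.42 and 1.37, and IFI6 was at 1.79. None of the 7 passed by limma adjusted p, and with time point as a block 3 of the 22 did (MX1, IFIT1 and EIF2AK2). APOBEC3G (-0.18) and ZC3HAV1 (-0.04) were lowest. At 48 h 13 of the 22 genes were at least 2-fold higher, against 1.88% of all genes, and at 96 h 5 were, against 1.46%. The difference between lists was not tested. The median of IFITM1, IFITM2, IFITM3 and BST2 was 0.996, with 1.27 at 48 h and 0.67 at 96 h.

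**Figure D4:**
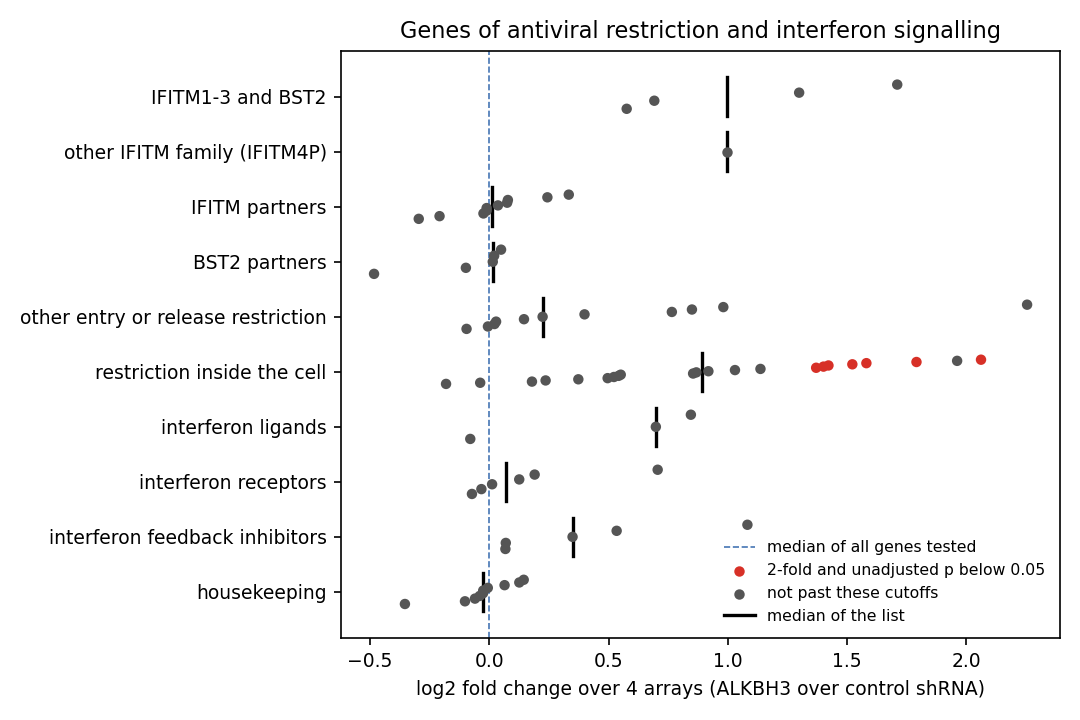
Log2 fold change over the 4 arrays for each tested gene (points) of 10 lists, with the median of each list (black bar), the median of all genes (dashed line) and genes past the study's cutoffs in red. The red points are all in the list of restriction inside the cell, and the IFITM and BST2 partners lie around 0.

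The interferon pathway upstream of the members was read in the same way. Of 8 ligand genes 3 were tested. IFNL1 and IFNL2, type III interferons, were at 0.85 and 0.70, with low signal (log2 between -6.40 and -3.03, and not well above background for IFNL1 on the control array at 96 h), and IFNE was at -0.08. IFNK, IFNG and IFNL3 were not well above background on any array, and IFNA1 had no named probe. IFNB1 was well above background on at least 1 array but was not among the genes tested. Among 6 receptor chains none passed the cutoffs, and they ranged from -0.07 for IFNAR1 to 0.71 for IFNLR1, the type III receptor chain (adjusted p = 0.0423 in the limma fit blocked by time point). Among genes of signal transduction, IRF7 was at 0.76 and STAT2 at 0.41, and the kinases TYK2 and JAK1 were at -0.23 and -0.02. Of 5 feedback inhibitors, USP18, which blocks the type I receptor, was at 1.08 (1.65 at 48 h, 0.51 at 96 h), SOCS1 at 0.53, and PTPN6 and PIAS1 at 0.07. None of these genes passed the cutoffs. The 10 housekeeping genes had a median of -0.03, with none past the cutoffs.

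The size of the members' differences changed with the array left out. Without the ALKBH3 shRNA array at 48 h the log2 fold change fell from 1.30 to 0.63 for IFITM1 and from 1.71 to 0.38 for BST2. Without the ALKBH3 shRNA array at 96 h the values were 1.97 and 3.04. With 2 arrays per shRNA, leaving out either shifts the value by the same amount in opposite directions, so these fits do not single out an array. IFITM2 ranged from 0.25 to 0.90 and IFITM3 from 0.45 to 0.94 when each array was left out in turn. The direction was higher with ALKBH3 shRNA in all of these fits.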

How the data were processed

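The deposited arrays were scanned and read by the authors with Agilent Feature Extraction, version 10.7.3.1 per the file headers, which gave for each spot a background-subtracted processed signal, an intensity on a linear scale. The authors' series table holds normalized log2 values of the same arrays and was used only as an alternative. Array numbers limit precision: 4 arrays, 2 per shRNA.

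Control spots and spots flagged as non-uniform or outlying (180 to 379 per array) were left out, and log2 intensity was centred on the 75th percentile of each array. Spots of a probe were averaged. The test covered probes that stood well above background on each array of 1 shRNA or both, and a gene was represented by its brightest such probe. Probes were named through their RefSeq accession, and 24910 of 34127 matched a gene symbol in a GRCh38.p14 gene table. Tests used limma 3.58.1 (lmFit, eBayes) in R 4.3.3 over all 14556 genes, with Benjamini-Hochberg adjustment, and exact permutation for IFITM against BST2. The script was tested on simulated data. Arrays of the same time point deviated together (r = 0.703 over 14556 genes), and since they share a slide, the time point was fitted as a block as an alternative.

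Named genes were all members with every probe, the called genes of each list or otherwise those with the largest and smallest changes, and the 3 nearest patterns per member. Genes named beside these, for their roles or as chromosomal neighbours, were chosen after their values were seen. Some listed items are not reported here. The members and lists were chosen with earlier results of these data known. Alternatives were other background corrections, scalings, filters, probe rules, the block, the methods' Student test and leaving out each array.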

Additional observations from a re-analysis of the deposited data

How the results depend on the processing

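Over the settings that kept all 4 arrays, every member stayed higher with ALKBH3 shRNA, with log2 fold changes of 1.27 to 1.43 for IFITM1, 0.53 to 0.62 for IFITM2, 0.66 to 0.72 for IFITM3 and 1.68 to 1.74 for BST2. IFITM1 passed the study's cutoffs under normexp background correction (1.30), quantile normalization (1.31), median centring (1.27), the 75th percentile over probes detected on all arrays (1.32), values as normalized by the authors (1.31), the filter for all 4 arrays (1.30), the mean over probes (1.43), each probe separately (1.30, and 1.55 for the second probe) and the time point as replicate block (1.30). The count of members past the cutoffs was therefore 1 in each of these but the block, where it was 2 with BST2 (1.71), against 0 as reported. It stayed at 0 under normexp with quantile normalization, without a filter on dim probes and by the methods' Student test. BST2 also passed for time under the shRNA block (-1.76). The share of all genes past the cutoffs was counted for the main settings only, so these counts have none to be set against.

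With each array left out in turn, log2 fold changes ranged from 0.63 to 1.97 for IFITM1 and from 0.38 to 3.04 for BST2. The 96 h minus 48 h difference ranged from -1.79 to -0.084 for IFITM1, from -3.06 to -0.45 for BST2, from -0.81 to 0.016 for IFITM2 and from -0.76 to 0.076 for IFITM3. The difference to BST2 ranged from -1.07 to 0.25 for IFITM1 and from -2.10 to 0.065 for IFITM3. The upper end of the last 4 ranges, and each reversal (IFITM2 and IFITM3 over time at 0.016 and 0.076, IFITM1 and IFITM3 against BST2 at 0.25 and 0.065), came without the ALKBH3 shRNA array at 48 h. The cause was not tested.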
